A study of Homo sapiens with 12 samples.

Results

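Cholesterol synthesis, uptake and SREBP genes were examined in Huh7 cells, a human hepatocellular carcinoma line, after silencing of TRPC1, a calcium-permeable channel linked to store-operated calcium entry. The 31 genes were named by their place in the pathway, and every probe listed for them in the array annotation was taken. Of these, 29 genes had 41 probes, and 35 probes of 27 genes were tested because their detection p was under 0.01 on 5 or more of 12 arrays. Over the whole array, 18852 genes were named by a probe and 8966 had a tested probe. FDFT1, squalene synthase, and NR1H2, a liver X receptor, had no probe listed under their names and were not analysed here. The gene list does not hold every enzyme of the pathway.

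TRPC1-silenced cells (siTRPC1) carried a vector expressing a TRPC1 silencing sequence, and control cells carried the empty vector. Both groups received 2 µg of vector with 6 µl of FugeneHD and were harvested after 48 h, with 6 arrays in each group. Each RNA came from a bulk culture in which not every cell took up the vector, and fewer cells of a kind and less RNA per cell cannot be told apart. The labels do not say whether the 6 arrays of a group were separate transfections, so p-values measure only the spread between these samples, which may be technical. Array 5 of each group was left out of the fit, leaving 5 against 5 arrays, and its values are given beside the others. This choice follows the study, which excluded these arrays because their TRPC1 values on the array and by PCR correlated poorly. The arrays of the fit were thus chosen partly on TRPC1 itself.

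Cells make cholesterol from acetyl-CoA, through mevalonate and squalene, in the endoplasmic reticulum. When membrane sterol is low, SCAP carries the SREBP transcription factors from the endoplasmic reticulum to the Golgi, where they are cleaved and released to the nucleus to switch on synthesis and uptake genes. When sterol is sufficient, the INSIG proteins hold SCAP and its cargo in the endoplasmic reticulum. In hepatocytes this loop is joined by cholesterol ester storage and by the liver X receptors, which respond to oxysterols.

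The TRPC1 probe read 8.71, 8.54, 8.48, 8.55 and 8.59 log2 intensity on siTRPC1 arrays 1, 2, 3, 4 and 6, against 8.75, 8.73, 8.77, 8.73 and 8.81 on the control arrays of the same numbers. All 5 siTRPC1 values lay below all 5 control values, but array 5 read 8.83 in siTRPC1 cells and 9.04 in control cells, so the 2 groups of 6 overlapped. The difference (log2FC, siTRPC1 minus control) was -0.18 (SE 0.0964), with a limma adjusted p of 0.343 over 13102 tested probes. The exact two-sided permutation p was 0.00794, the smallest that 5 against 5 arrays allow. Because the arrays were chosen partly on TRPC1 values, and the left-out siTRPC1 array 5 lay above all 5 control values, these p-values cannot serve as a test of silencing. The study itself reported lower TRPC1 mRNA in silenced cells by PCR and, at a later time, lower TRPC1 protein by Western blot. Over the whole array 165 probes were called at an adjusted p under 0.05 (103 higher, 62 lower). The mean deposited intensity was 480 and 457 on control arrays 1 and 2, the lowest of all arrays, against 566 to 688 on the others. With the arrays of each group taken in adjoining pairs (1 and 2, 3 and 4, 5 and 6), 11 of the 12 arrays correlated best, within their group, with the other of their pair, and slide and scan were not given in the sources used here. Of 8 hepatocyte markers listed 7 had a probe, and ALB, AFP, TTR and TF were bright on every array. One SERPINA1 probe (ILMN_2256050) passed the detection limit on 0 arrays. Another (ILMN_1764980) averaged 8.56 log2 intensity in siTRPC1 cells and 8.07 in control cells. The brighter SERPINA1 probes ILMN_2338452 and ILMN_2404154 averaged 14.50 and 14.20 in siTRPC1 cells, against 14.43 and 14.07 in control cells. The endothelial and leukocyte markers CDH5, VWF, PTPRC and CD3E and the stromal markers COL1A1 and DCN passed the detection limit on 0 arrays, while COL1A2, PECAM1 and a pair of CD68 probes passed it on all 12 and the stromal marker PDGFRB on 9 (4 siTRPC1, 5 control).

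None of the 35 cholesterol gene probes was called (0 higher, 0 lower), against a background of 1.26% of all tested probes (0.786% higher, 0.473% lower). With all 12 arrays 0 of the 35 were called against 1.58% of all tested probes, and under median centring 0 against 0.924% (0.473% higher). At an unadjusted p under 0.05 in limma, 5 probes were higher and 2 lower in siTRPC1 cells, beside 16.9% of all tested probes (9.19% higher, 7.71% lower). The 2 groups of 5 were apart in 0 of the 35 probes, against 3.85% of all tested probes (2.08% higher, 1.77% lower). The log2FC was above 0 for 24 of the 35 probes (68.6%), with a median of 0.09, against 49.3% and a median of -0.00247 over all tested probes. The 95% interval of the log2FC lay within 0.5 of 0 on either side for 30 of the 35 probes. With median centring, which shifts each array to a common median and leaves its distribution alone, 22 probes were above 0 with a median of 0.05, where all tested probes had a median of -0.02 and 44.3% above 0.

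**Figure D1:**
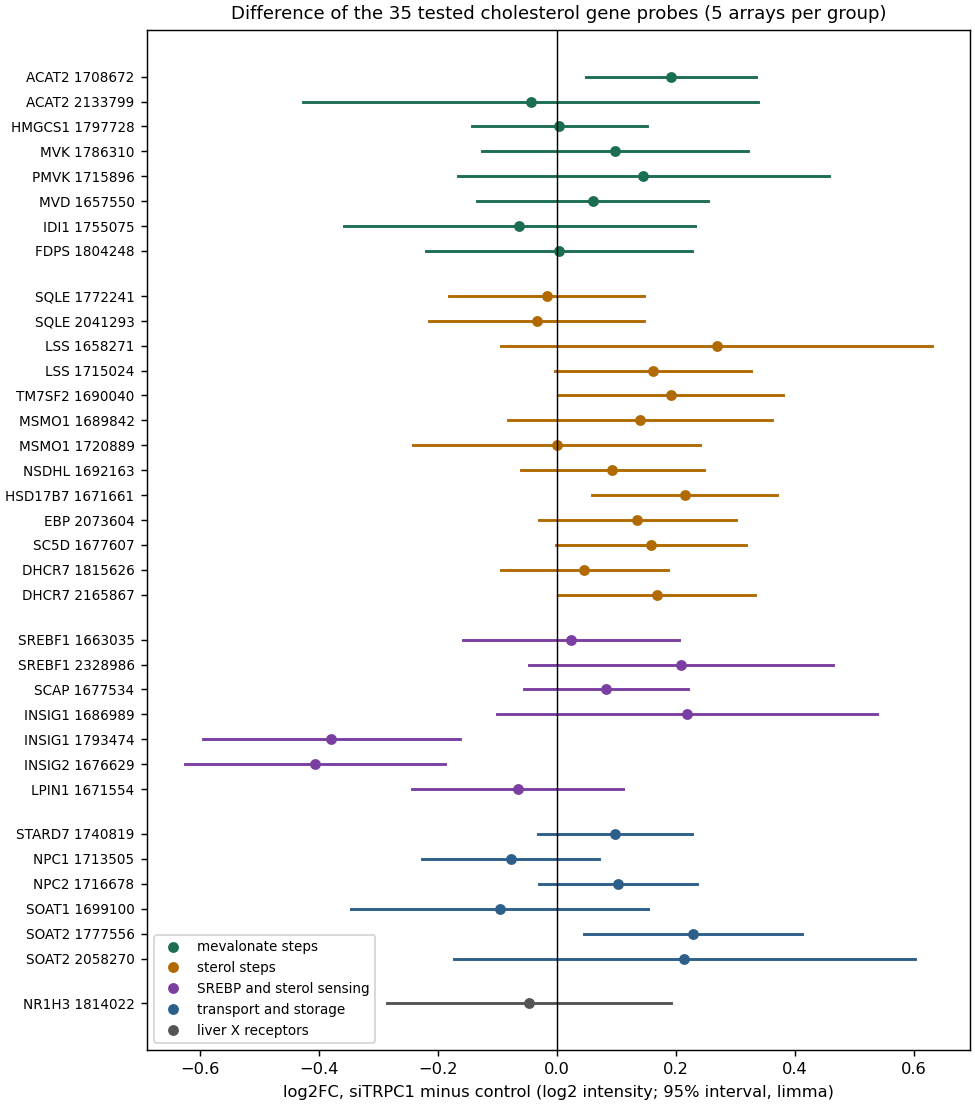
Difference between siTRPC1 and control cells (horizontal axis, log2FC in log2 intensity, points with 95% intervals from limma, 5 arrays per group) for each of the 35 tested probes, grouped by role. Most points lie between -0.1 and 0.3, and the intervals of an INSIG1 probe and of the INSIG2 probe are the 2 that lie wholly below 0. The intervals of 5 other probes lie wholly above 0.

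The furthest values from 0 were in the sterol sensing step, where probes of INSIG1 and INSIG2, the endoplasmic reticulum anchors of SCAP, gave the lowest log2FC of the list and neither passed the test. Promoter windows of INSIG1, INSIG2 and SREBF2 (250 bases before to 50 after the start, RefSeq, GRCh38.p14) are shown because the anchors gave these values and SREBF2 was the single gene of the list whose window held the sterol element searched. Capitals mark matches, on either strand, to the sterol regulatory element letters TCACNCCAC, the SREBP site, and to CCAAT, the site of NF-Y, a partner of SREBPs, which reads ATTGG where it lies on the other strand.
SREBF2, chr22:41832855-41833154, plus strand: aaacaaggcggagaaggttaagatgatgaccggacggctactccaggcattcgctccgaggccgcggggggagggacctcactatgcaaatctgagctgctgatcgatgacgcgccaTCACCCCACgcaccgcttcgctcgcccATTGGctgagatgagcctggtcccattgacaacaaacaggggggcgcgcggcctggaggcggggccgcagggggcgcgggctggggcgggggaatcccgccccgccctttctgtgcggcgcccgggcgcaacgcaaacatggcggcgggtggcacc
INSIG1, chr7:155297628-155297927, plus strand: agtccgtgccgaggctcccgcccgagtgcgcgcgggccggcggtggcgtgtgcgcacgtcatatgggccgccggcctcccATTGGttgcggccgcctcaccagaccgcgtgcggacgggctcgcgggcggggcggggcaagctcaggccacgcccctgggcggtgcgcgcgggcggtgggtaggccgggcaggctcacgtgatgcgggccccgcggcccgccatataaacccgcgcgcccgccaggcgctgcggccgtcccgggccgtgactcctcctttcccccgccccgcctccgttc
INSIG2, chr2:118088221-118088520, plus strand, 1 of 2 windows listed: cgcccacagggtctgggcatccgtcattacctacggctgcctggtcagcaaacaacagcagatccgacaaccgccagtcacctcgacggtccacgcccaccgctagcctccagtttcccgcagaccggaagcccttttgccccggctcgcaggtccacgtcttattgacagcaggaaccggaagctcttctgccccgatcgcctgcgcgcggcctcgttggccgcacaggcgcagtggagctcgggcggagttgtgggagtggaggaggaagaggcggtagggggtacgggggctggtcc
The SREBF2 window held the sterol element with its first base 133 bases before the start, 1 CCAAT match and 3 matches to GGGCGG (the Sp1 box). The INSIG1 window held 1 CCAAT match, 6 matches to GGGCGG and 1 to CACGTG (the E-box), and the INSIG2 window held 1 GGGCGG match and no capitals. A match is a description of letters only. Only this 9-letter form of the sterol element was searched, and 27 of the 31 genes had a window. The absence of a match does not show that a gene lacks a sterol element.

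INSIG2 read 8.67, 8.91, 8.76, 8.53 and 8.96 log2 intensity on siTRPC1 arrays 1, 2, 3, 4 and 6, against 9.12, 9.25, 9.26, 8.96 and 9.27 on control arrays 1, 2, 3, 4 and 6. The highest siTRPC1 array and the lowest control array met at 8.96, so the groups just overlapped. Array 5 read 9.24 in siTRPC1 cells, above all the other siTRPC1 arrays, and 9.30 in control cells. The mean was 8.76 ± 0.175 in siTRPC1 cells and 9.17 ± 0.135 in control cells (SD, n = 5 each), a log2FC of -0.41 (SE 0.106), or 24.6% lower. The limma adjusted p was 0.0557, and the exact two-sided permutation p for this probe alone was 0.0159. With all 12 arrays the log2FC was -0.35 and the adjusted p 0.0894. The adjusted p passed under 0.05 only in the fit without control array 4 (log2FC -0.46, adjusted p 0.0443).

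INSIG1 was measured by a pair of probes that are both assigned to the transcript NM_198336 and that differed in sign. The probe ILMN_1793474 read 10.42, 10.78, 10.63, 10.87 and 11.03 log2 intensity on siTRPC1 arrays 1, 2, 3, 4 and 6 and 11.00 on array 5. It read 11.34, 11.30, 11.10, 10.97 and 10.92 on the same control arrays and 11.21 on array 5. The lowest value was on siTRPC1 array 1 and the highest were on control arrays 1 and 2, while siTRPC1 array 6 lay above control arrays 4 and 6. Its log2FC was -0.38 (SE 0.104), or 23.1% lower, with a limma adjusted p of 0.0708 and an exact two-sided permutation p of 0.0317. Without control arrays 1 and 2 the log2FC was -0.25 (adjusted p 0.277), and without siTRPC1 array 1 as well, an alternative chosen after seeing the data, it was -0.17. Without control array 6 the adjusted p was 0.0387 (log2FC -0.43).

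The other INSIG1 probe, ILMN_1686989, read 8.28, 8.15, 8.60, 8.27 and 9.00 log2 intensity on siTRPC1 arrays 1, 2, 3, 4 and 6 and 8.49 on array 5, against 8.58, 8.30, 7.91, 8.14 and 8.27 on the same control arrays and 8.01 on array 5. The groups overlapped, and siTRPC1 array 6 stood highest. Its log2FC was 0.22 (SE 0.154, adjusted p 0.491), opposite in sign to that of the brighter probe, and it was 0.08 without siTRPC1 array 6, 0.14 without control array 3 and 0.35 without control arrays 1 and 2.

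**Figure D2:**
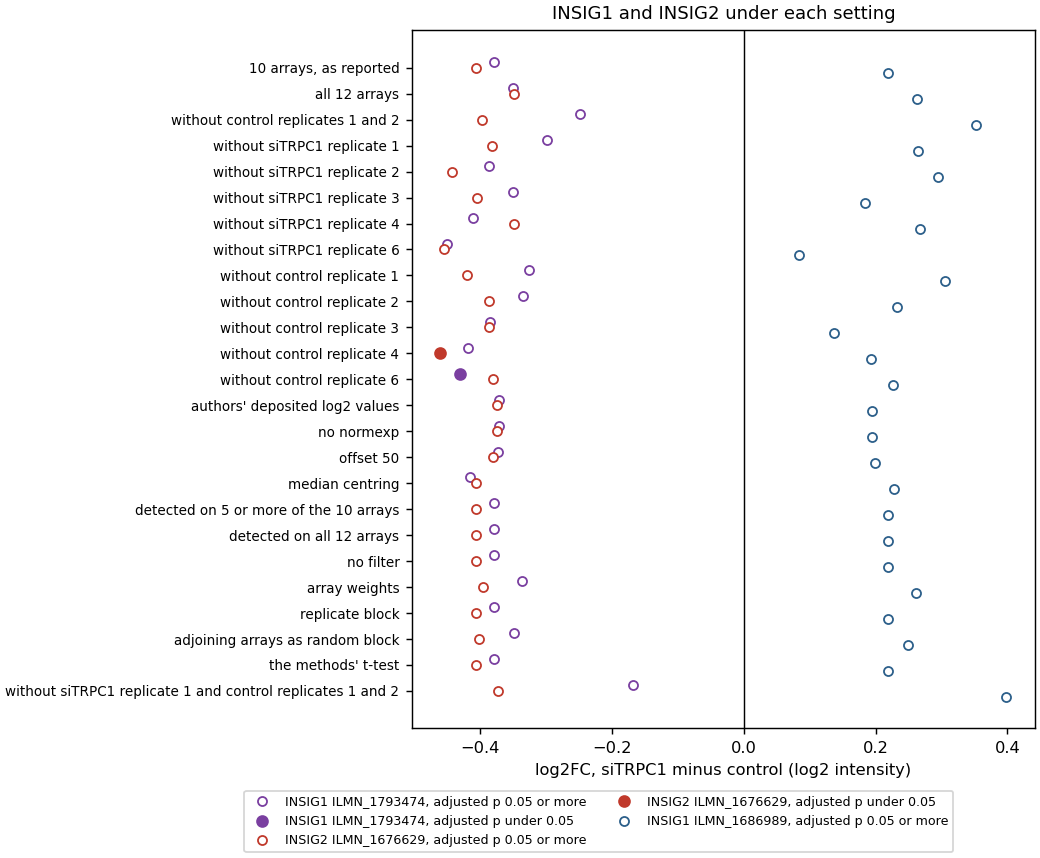
The log2FC (horizontal axis, siTRPC1 minus control, log2 intensity) of the INSIG2 probe and of both INSIG1 probes in the reported fit and in each of 24 alternatives (rows), with filled points where the adjusted p was under 0.05. The INSIG2 probe stays between -0.46 and -0.35, the INSIG1 probes stay on opposite sides of 0, and 1 point of INSIG2 and 1 of INSIG1 are filled.

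SREBF1, which encodes the SREBP isoforms that favour fatty acid genes, had 2 tested probes. ILMN_1663035 read 9.41, 9.50, 9.31, 9.32 and 9.59 on siTRPC1 arrays 1, 2, 3, 4 and 6 (9.50 on array 5), against 9.39, 9.37, 9.35, 9.40 and 9.50 on the same control arrays (9.51 on array 5). The groups overlapped throughout, and the log2FC was 0.02 (SE 0.0873, adjusted p 0.919), with a sign that turned when siTRPC1 array 6 was left out. ILMN_2328986 read 8.30, 8.40, 8.37, 8.03 and 8.28 on siTRPC1 arrays 1, 2, 3, 4 and 6 (8.09 on array 5), against 7.79, 8.08, 8.13, 8.08 and 8.26 on the same control arrays (7.96 on array 5). siTRPC1 array 4 lay inside the control range of the fit, and the log2FC was 0.21 (SE 0.123, adjusted p 0.402), or 0.12 without control arrays 1 and 2. One more SREBF1 probe passed the detection limit on 0 arrays.

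SREBF2, which encodes the SREBP isoform that favours cholesterol genes, had a single probe that passed the detection limit on 2 siTRPC1 arrays and 1 control array and was not tested. SCAP, the sterol-sensing escort of the SREBPs, read 11.68, 11.53, 11.63, 11.56 and 11.51 on siTRPC1 arrays 1, 2, 3, 4 and 6 (11.63 on array 5), against 11.54, 11.42, 11.43, 11.54 and 11.57 on the same control arrays (11.50 on array 5). Its groups overlapped, and its log2FC was 0.08 (SE 0.0666, adjusted p 0.561), or 0.05 under median centring. LPIN1, a phosphatidate phosphatase whose nuclear form restrains SREBP activity in mouse cells, had a log2FC of -0.07 (adjusted p 0.742). The 7 tested probes of the sensing genes thus held 4 above 0 with a median log2FC of 0.02 and 0 calls.

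The mevalonate steps gave 8 tested probes of 7 genes, with 0 calls, 6 above 0 and a median log2FC of 0.03 (4 above 0 and 0.02 under median centring). ACAT2, which joins acetyl-CoA units at the entry of the pathway, had 1 of the 5 probes that were higher at an unadjusted p under 0.05. Its probe ILMN_1708672, described by array after its values were seen, read 13.43, 13.84, 13.68, 13.67 and 13.59 on siTRPC1 arrays 1, 2, 3, 4 and 6 (13.61 on array 5), against 13.38, 13.47, 13.42, 13.47 and 13.52 on the same control arrays (13.57 on array 5). All siTRPC1 arrays but array 1 lay above the control range of the fit, and the log2FC was 0.19 (SE 0.069, adjusted p 0.158). The dimmer ACAT2 probe gave -0.04. HMGCS1, which makes the HMG-CoA that is reduced to mevalonate, had a log2FC of 0.00 at 13.9 log2 intensity in both groups. The kinases MVK and PMVK gave 0.10 and 0.14, the decarboxylase MVD 0.06, the isopentenyl diphosphate isomerase IDI1 -0.06, and the farnesyl diphosphate synthase FDPS 0.00, and all had adjusted p-values of 0.668 or more.

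IDI1 had the widest spread between arrays among the mevalonate genes when both groups were pooled, while in control cells alone the SD of PMVK was larger (0.373, against 0.363 for IDI1). It read 9.75, 9.85, 10.15, 10.21 and 10.40 on siTRPC1 arrays 1, 2, 3, 4 and 6 (10.30 on array 5), against 10.66, 10.34, 9.85, 9.78 and 10.04 on the same control arrays (9.94 on array 5). In siTRPC1 cells arrays 1 and 2 were the low ones, and in control cells arrays 1 and 2 were the high ones. Its within-group SD of 0.319 lay at percentile 99.4 among the 500 tested probes nearest in level, and that of the MSMO1 probe ILMN_1720889, at 0.26, lay at percentile 99.6. Without control arrays 1 and 2 the IDI1 log2FC was 0.18 (adjusted p 0.548). IDI1 and MSMO1 were singled out after their values were seen.

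**Figure D3:**
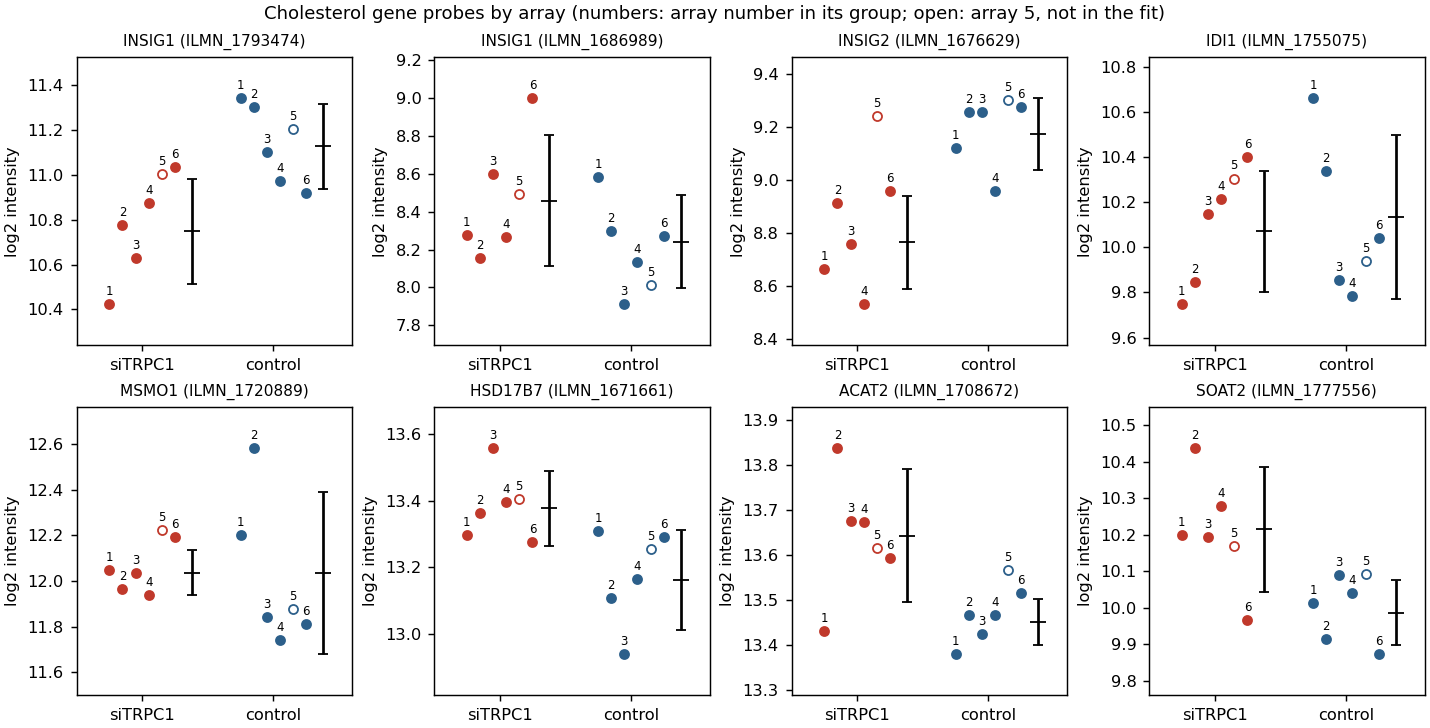
Log2 intensity (vertical axis) on each array of 8 probes in siTRPC1 cells (red, left) and control cells (blue, right), with array numbers, array 5 open and left out of the fit, and bars of mean and SD over the other 5 arrays. The groups overlap in every panel, and IDI1 runs from 9.75 to 10.40 on siTRPC1 arrays and from 9.78 to 10.66 on control arrays.

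The sterol steps, which turn squalene into cholesterol, gave 13 tested probes of 9 genes with 0 calls, 10 above 0 and a median log2FC of 0.14, against -0.00247 over all tested probes. Under median centring 10 were above 0, with a median of 0.12. With each array of the fit left out in turn, 9 to 13 were above 0. HSD17B7, the 3-keto reductase of the C4 demethylation steps, read 13.30, 13.36, 13.56, 13.40 and 13.28 on siTRPC1 arrays 1, 2, 3, 4 and 6 (13.41 on array 5), against 13.31, 13.11, 12.94, 13.17 and 13.29 on the same control arrays (13.26 on array 5). Control arrays 1 and 6 lay inside the siTRPC1 range, and the log2FC was 0.21 (SE 0.075, adjusted p 0.148), or 0.14 under median centring. HSD17B7 has a near-identical pseudogene copy, and whether the probe tells them apart was not checked.

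LSS, which closes squalene epoxide into lanosterol, had 2 tested probes with the same sign. ILMN_1658271, which passed the detection limit on 5 siTRPC1 and 3 control arrays, read 7.32, 6.92, 7.27, 7.37 and 7.36 on siTRPC1 arrays 1, 2, 3, 4 and 6 (7.06 on array 5), against 6.83, 6.68, 6.95, 7.18 and 7.27 on the same control arrays (7.31 on array 5). siTRPC1 array 2 lay inside the control range of the fit, and the log2FC of 0.27 (SE 0.175, adjusted p 0.451) was the highest of the list, and it was 0.12 without control arrays 1 and 2. The brighter LSS probe gave 0.16 (adjusted p 0.308). A further LSS probe, which passed the detection limit on 0 siTRPC1 and 2 control arrays, was not tested and averaged 6.30 in siTRPC1 cells and 6.62 in control cells. TM7SF2, a sterol C14 reductase, gave 0.19 (adjusted p 0.287) and a probe of DHCR7, which makes the final reduction to cholesterol, gave 0.17 (adjusted p 0.291), both with an unadjusted p under 0.05, while the other DHCR7 probe gave 0.05.

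The remaining sterol enzymes lay close to 0 or slightly above it. The squalene epoxidase SQLE gave -0.02 and -0.03 by its 2 probes, the dehydrogenase NSDHL 0.09, the isomerase EBP 0.13 and the desaturase SC5D 0.16. MSMO1, the C4-methyl oxidase, gave 0.14 and -0.00, and its untested probe passed the detection limit on 0 arrays. The MSMO1 probe at -0.00 read 12.05, 11.96, 12.03, 11.94 and 12.19 on siTRPC1 arrays 1, 2, 3, 4 and 6 (12.22 on array 5), against 12.20, 12.58, 11.84, 11.74 and 11.81 on the same control arrays (11.88 on array 5). Control arrays 1 and 2 were above all 5 siTRPC1 arrays of the fit and the other 3 control arrays of the fit were below them. Without control arrays 1 and 2 this probe gave 0.24 (adjusted p 0.130) and the other MSMO1 probe 0.26 (adjusted p 0.282), and all 13 sterol probes were above 0, with a median of 0.12. Counted per array over all 35 probes, between 17 and 28 were above their 10-array median on the siTRPC1 arrays and between 9 and 20 on the control arrays, so the groups of 6 overlapped.

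**Figure D4:**
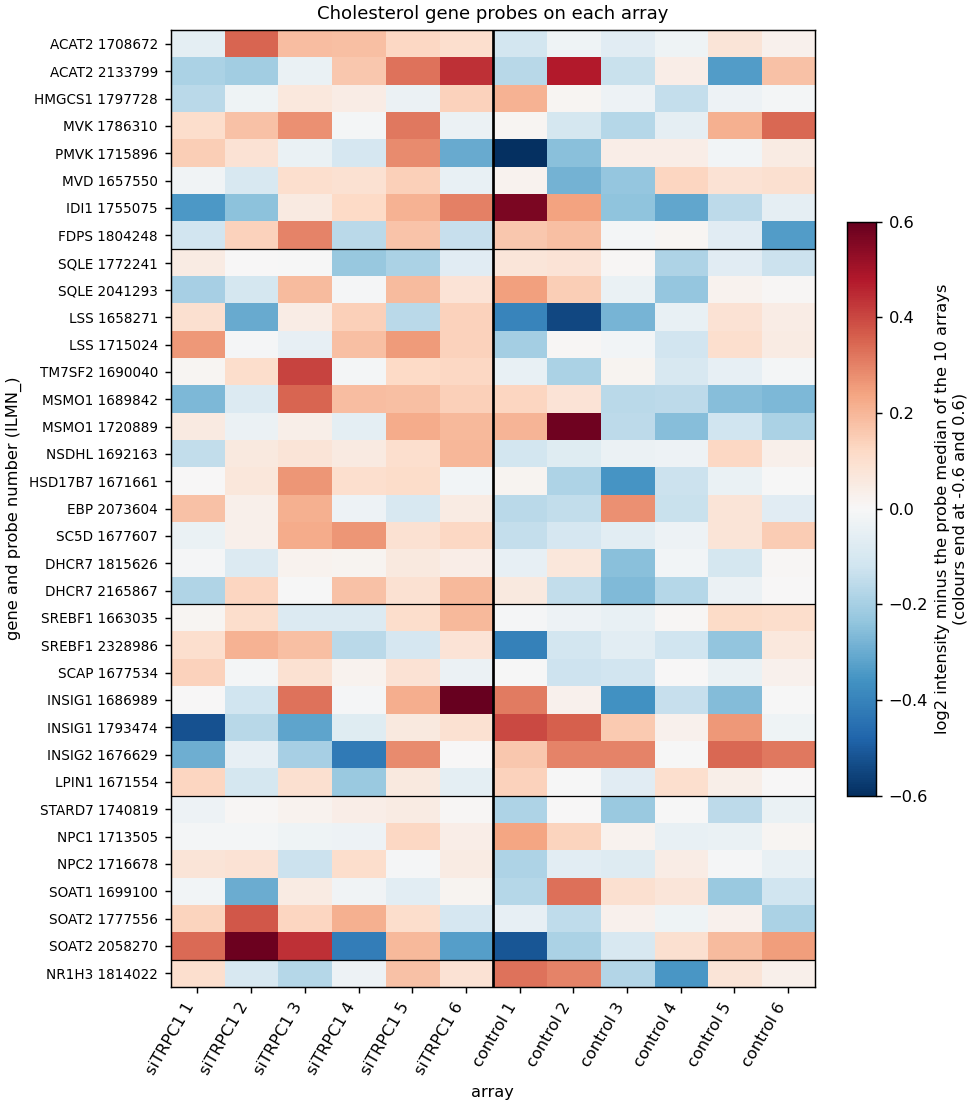
Log2 intensity of the 35 tested probes (rows, by role) on each of the 12 arrays (columns, siTRPC1 left, control right), as the difference from the probe's median over the 10 arrays of the fit. The IDI1 row is low on siTRPC1 arrays 1 and 2 (-0.35 and -0.25) and high on control arrays 1 and 2 (0.57 and 0.24), and no block of rows separates the groups on every array.

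Among the transport and storage genes, 6 probes of 5 genes were tested, with 0 calls, 4 above 0 and a median log2FC of 0.10 (0.02 under median centring). SOAT2, which esterifies cholesterol for lipoproteins in hepatocytes and enterocytes, had 2 tested probes. ILMN_1777556 read 10.20, 10.44, 10.19, 10.28 and 9.96 on siTRPC1 arrays 1, 2, 3, 4 and 6 (10.17 on array 5), against 10.01, 9.91, 10.09, 10.04 and 9.87 on the same control arrays (10.09 on array 5). siTRPC1 array 6 was the single array of the fit inside the control range, and the log2FC was 0.23 (SE 0.0883, adjusted p 0.192). ILMN_2058270 read 8.33, 8.58, 8.43, 7.58 and 7.66 on siTRPC1 arrays 1, 2, 3, 4 and 6 (8.19 on array 5), against 7.48, 7.80, 7.90, 8.09 and 8.25 on the same control arrays (8.18 on array 5). siTRPC1 arrays 1, 2 and 3 were high and arrays 4 and 6 low, and the log2FC of 0.21 (SE 0.187, adjusted p 0.597) was within this spread, and was 0.10 without siTRPC1 array 2, 0.11 without control array 1, 0.14 without siTRPC1 array 3, 0.33 without siTRPC1 array 6, 0.35 without siTRPC1 array 4 and 0.04 without control arrays 1 and 2. SOAT1, the esterifying enzyme found in most tissues, gave -0.10 (adjusted p 0.731).

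NPC1 and NPC2, which pass cholesterol out of lysosomes, gave -0.08 and 0.10, with adjusted p-values of 0.623 and 0.431. STARD7, a phosphatidylcholine carrier to mitochondria, gave 0.10 (adjusted p 0.440) by its bright probe. Its dim probe ILMN_1687140 read 7.24, 7.18, 6.99, 6.39 and 6.10 on siTRPC1 arrays 1, 2, 3, 4 and 6 (6.04 on array 5), against 5.79, 5.31, 5.92, 5.86 and 5.98 on the same control arrays (6.24 on array 5). It passed the detection limit on 3 siTRPC1 arrays and 0 control arrays, so it was not tested, and its siTRPC1 mean of 6.78 was under the mean detection bound of 6.92 on the control arrays, so no fold is given. The one probe of STARD4, a cytosolic sterol carrier, passed the limit on 0 arrays. NR1H3, the liver X receptor alpha gene, gave -0.05 (adjusted p 0.871).

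Promoter windows were found for 27 of the 31 genes, as 39 windows among 35116 in the table. TCACNCCAC was in 1 of the 39 windows (2.56%) and in 1.13% of all windows. CCAAT was in 22 (56.4%, against 34.6%), GGGCGG in 34 (87.2%, against 45.0%) and CACGTG in 5 (12.8%, against 7.26%). The 22 tested probes of the 18 genes with a CCAAT match held 17 above 0 with a median log2FC of 0.10, and the 7 probes of the 6 genes without one held 4 above 0 with a median of 0.02. The 6 probes of the 3 genes with no window (ACAT2, SQLE and SOAT2) held 3 above 0 with a median of 0.09. No group held a call. A gene counted as matched if any of its windows held CCAAT, and whether the groups differ was not tested.

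A wider list of 24 further sterol genes, with regulators, lipoprotein receptors and exporters, had 26 tested probes of 21 genes and again 0 calls, with 10 above 0 and a median log2FC of -0.02. The single probe with an unadjusted p under 0.05 in limma, beside 16.9% of all tested probes, was that of ABCA1, a cholesterol exporter and liver X receptor target. The ABCA1 log2FC was 0.27 (adjusted p 0.129), and 0.29 (adjusted p 0.0545) with all 12 arrays. The 8 lipogenic targets of SREBP-1 had 11 tested probes, of which 2 fell and 0 rose, with a median of -0.10, beside 0.473% lower and 0.786% higher of all tested probes. SCD, the stearoyl-CoA desaturase, read 14.02, 13.96, 13.90, 13.94 and 14.05 on siTRPC1 arrays 1, 2, 3, 4 and 6 (14.40 on array 5), against 14.39, 14.30, 14.22, 14.20 and 14.27 on the same control arrays (14.24 on array 5). The 5 siTRPC1 arrays of the fit all lay below the 5 control arrays, whereas siTRPC1 array 5 was the highest of the 12. Its log2FC was -0.30 (SE 0.0593, adjusted p 0.0134), and -0.23 (adjusted p 0.0949) with all 12 arrays.

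ME1, the malic enzyme that supplies NADPH for lipid synthesis, read 10.20, 9.99, 10.03, 10.29 and 10.09 on siTRPC1 arrays 1, 2, 3, 4 and 6 (10.18 on array 5), against 10.84, 10.64, 10.45, 10.31 and 10.38 on the same control arrays (10.16 on array 5). The 5 arrays of each group in the fit did not overlap, with control arrays 1 and 2 the highest. Its log2FC was -0.40 (SE 0.0967, adjusted p 0.0455), and -0.33 (adjusted p 0.0690) with all 12 arrays. Without control arrays 1 and 2 the adjusted p was 0.187 for ME1 and 0.0660 for SCD, and with adjoining arrays as a random block it was 0.131 for ME1 and 0.0581 for SCD. With single arrays left out, SCD lost its call without siTRPC1 array 3 (adjusted p 0.0591) or array 4 (0.0502), and ME1 kept its call only without control array 4 (0.0276) or array 6 (0.0278). FASN, the fatty acid synthase, gave -0.10 (adjusted p 0.520).

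Of the 11 tested hepatocyte marker probes 1 rose, beside 0.786% of all tested probes. This was TTR, the transthyretin gene, with a log2FC of 0.24 (adjusted p 0.0496), and 0.24 (adjusted p 0.0178) with all 12 arrays. It read 14.58, 14.71, 14.64, 14.61 and 14.62 on siTRPC1 arrays 1, 2, 3, 4 and 6 (14.70 on array 5), against 14.24, 14.41, 14.41, 14.40 and 14.50 on the same control arrays (14.44 on array 5), so that the groups of 6 did not overlap. The log2FC was 0.07 (adjusted p 0.718) under median centring, and the adjusted p was 0.178 with adjoining arrays as a random block and 0.185 without control arrays 1 and 2. With single arrays left out, TTR passed the test only without control array 6 (adjusted p 0.0272). The SERPINA1 probe ILMN_1764980 had a larger log2FC of 0.49 (limma adjusted p 0.0531), and its groups of 6 did not overlap either. The brighter SERPINA1 probes ILMN_2338452 and ILMN_2404154 gave 0.07 and 0.13 (limma adjusted p 0.650 and 0.293), and their groups overlapped. At an unadjusted p under 0.05 in limma, 4 of the 11 marker probes were higher and 0 lower, beside 9.19% and 7.71% of all tested probes. In the main fit 8 of the 11 were above 0 (median 0.07), and under median centring 4 were (median -0.11). The summed stromal markers ran from 9.79 to 10.27 log2 intensity on siTRPC1 arrays and from 9.69 to 9.91 on control arrays, with a log2FC of 0.35 and 0.25 for the 2 COL1A2 probes (adjusted p 0.160 and 0.386) and -0.02 for PDGFRB (adjusted p 0.978). Their part in the cholesterol gene values was not tested.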

How the data were processed

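Total RNA (500 ng) of 6 siTRPC1 and 6 control Huh7 samples was amplified, labelled with biotin and hybridised to HumanHT-12 v3 BeadChips. The authors deposited background-subtracted linear intensity values from GenomeStudio, not normalized between arrays, with a detection p-value for each probe and array, and a table of log2 values that the authors had quantile-normalized over all 12 arrays with lumi (named in the submitters' processing notes; version not given in the sources used here). The deposited log2 values were rebuilt from the intensities to within 0.014.

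From the intensities, normexp background correction using the detection p-values (offset 16), log2 and quantile normalization over the 12 arrays were computed in limma 3.58.1 (R 4.3.3). Of 48803 probes, 28098 had 1 gene symbol in the platform annotation, 13 had several and 20692 had none listed; 13102 (26.8%) with a detection p under 0.01 on 5 or more of 12 arrays were tested. The main fit was lmFit and eBayes with a trend on 10 arrays, with Benjamini-Hochberg adjustment over all tested probes, a call being an adjusted p under 0.05. limma was used in place of the study's Rank Product test, which was an alternative with 100 permutations. Exact two-sided permutation tests used all 252 splits of 5 against 5 arrays. Arrays give no counts, so their number limits the precision.

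Values by array were given for cholesterol gene probes with an adjusted p under 0.05 in the 10-array or 12-array fit. They were also given for the 8 tested cholesterol gene probes with the largest absolute log2FC. The tested probes of SREBF1, SREBF2, SCAP, INSIG1 and INSIG2, and the called probes of the other lists, were given too. Probes of ACAT2, IDI1 and MSMO1 were named after their values were seen, as stated beside them. Outside these rules, the dim STARD7 probe was given by array, and ABCA1, FASN, SERPINA1, COL1A2 and PDGFRB were given with values though not called. The members and lists were chosen with earlier results of these data known. Alternatives were the deposited log2 values, other background, normalization and filter settings, other sets of arrays, array weights, replicate and adjoining-array blocks, and other tests. The script was tested on simulated data. Promoter letters were searched in RefSeq windows with Python 3.11.15.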

Additional observations from a re-analysis of the deposited data

Results flagged for a closer look

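In 70 groups of 5 arrays (35 probes in 2 groups), 5 held an array far from the other 4 by Dixon's 95% criterion, where chance gives about 1 in 20. siTRPC1 array 2 was low for LSS (ILMN_1658271), at 6.92 log2 intensity against 7.27 to 7.37 on the other siTRPC1 arrays. The same array was low for SOAT1, at 8.09 against 8.36 to 8.43. Control array 3 was high for EBP, at 13.3 against 12.8 to 12.9 on the other control arrays. siTRPC1 array 6 was high for NPC1, at 10.9 against 10.8 on the other siTRPC1 arrays. siTRPC1 array 3 was low for NPC2, at 13.4 against 13.6 on the others.

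The dim STARD7 probe, outside the tested probes, passed the detection limit on 3 siTRPC1 arrays and 0 control arrays. By Rank Product on all probes it was called higher, with an estimated share of false positives of 0 over 100 permutations, and limma on all probes gave it an adjusted p of 0.0983.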

How the results depend on the processing

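The count of cholesterol gene probes called stayed at 0 higher and 0 lower in all but 3 of 26 alternatives. Rank Product on all probes called 1 higher (STARD7), and leaving out each array in turn gave 0 to 1 lower, without control array 4 (INSIG2) and without control array 6 (an INSIG1 probe). The signs of the 10 cholesterol gene probes given array by array under the naming rule held in every limma and t-test alternative that gave them a value, except SREBF1 ILMN_1663035 (-0.0184 without siTRPC1 array 6 to 0.0515 without siTRPC1 array 3) and SOAT2 ILMN_2058270, at -0.0135 without siTRPC1 array 1 and control arrays 1 and 2, the alternative chosen after seeing the data. The causes were not tested.

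Over all probes, the count called higher was 103 and moved to 63 without control arrays 1 and 2, 62 under median centring, 19 with no filter, 17 with adjoining arrays as a random block, 3 by the methods' t-test and 47 by Rank Product on all probes. The count called lower was 62 and moved to 15 with no filter, 13 with adjoining arrays as a random block, 1 by the methods' t-test and 12 by Rank Product on all probes. Leaving out each array in turn gave 17 (without siTRPC1 array 3) to 198 (without control array 6) higher, and 17 (without siTRPC1 array 4) to 115 (without control array 6) lower. The methods' t-test gave 1907 probes at an unadjusted p under 0.05, 6 of them cholesterol gene probes, and 4 after Benjamini-Hochberg adjustment, SCD and ME1 not among them (adjusted p 0.0775 and 0.195).

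Replicate numbers did not pair the arrays: the correlation of same-numbered deviations lay between -0.05 and 0.01. With the replicate block 106 probes were called higher and 46 lower, with 0 cholesterol gene probes. INSIG2 had an adjusted p of 0.0506, and ME1 and TTR, called without it, had 0.0526 and 0.0660. Adjoining arrays had a consensus correlation of 0.327, and with them as a random block the lowest adjusted p of a cholesterol gene probe was 0.187.

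The half-width of the 95% interval was 0.129 to 0.388 (median 0.183) over the 35 probes. These intervals are not adjusted for the number of probes. Of the 35, 28 crossed 0, yet 0 probes were called, so a call needed a difference larger than the half-width. The INSIG2 interval, for example, ran from -0.63 to -0.19 at a limma adjusted p of 0.0557. SREBF2 and STARD4 had no tested probe.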
